A study of Homo sapiens with 36 samples.

Results

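The genes described here are 10 transcripts controlled by the coactivator YAP or tied to the actin cytoskeleton: CCN1, CCN2, ANKRD1, THBS1, TAGLN, MYL9, AXL, AMOTL2, LATS2 and AJUBA. They were taken as a list of gene symbols that was chosen with earlier results of these data known. Counts of these genes set beside the shares of all genes are therefore descriptions. The array annotation gave them 17 of 43960 probes. All 10 genes passed the filter on detection and were among the 14678 genes tested. RNA was measured on 36 Illumina bead arrays from HCT116 cells, a human colorectal carcinoma line, and BEAS-2B cells, an immortalized human bronchial epithelial line. HCT116 cells received 1400 µM CuSO4 in DMEM and BEAS-2B cells 800 µM, so the effects of dose and of line on the copper responses cannot be told apart. Copper was sampled after 2, 4, 6, 12 and 18 h with 2 arrays per time, which gave 10 copper arrays per line. Untreated cells in the same medium gave 8 arrays per line, as pairs at 0 and 6 h and single arrays at 2, 4, 12 and 18 h. The labels do not state whether the arrays of a group stem from independent cultures. The p-values therefore measure the spread between arrays, which may be technical.

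YAP and its relative TAZ carry no DNA-binding domain of their own and act through TEAD transcription factors. The kinases LATS1 and LATS2 phosphorylate YAP and keep it out of the nucleus, whereas cell spreading and actin filament tension favour its entry. A second actin-sensing route, through MRTF coactivators and the factor SRF, drives many of the same cytoskeletal genes. Both routes are active in spread epithelial and fibroblast cultures and vary with cell density, serum and stress.

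The products fall into several kinds. CCN1 (Entrez Gene 3491, chromosome 1), CCN2 (1490, chromosome 6) and THBS1 (7057, chromosome 15) encode secreted matrix-associated proteins that bind integrins. ANKRD1 (27063, chromosome 10) encodes an ankyrin-repeat protein of nucleus and sarcomere and is a common readout of YAP. TAGLN (6876, chromosome 11) encodes transgelin, an actin-binding protein, and MYL9 (10398, chromosome 20) a regulatory light chain of myosin II. AXL (558, chromosome 19) encodes a receptor tyrosine kinase for GAS6. AMOTL2 (51421, chromosome 3), LATS2 (26524, chromosome 13) and AJUBA (84962, chromosome 14) encode regulators of the Hippo pathway itself, an angiomotin family scaffold, the kinase that phosphorylates YAP and a LIM protein that restrains LATS kinases.

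RefSeq promoter windows of 300 bases on GRCh38.p14, running from 250 bases before to 50 after a gene's start, were held for 7 of the 10 genes in 10 windows, and for CCN1, TAGLN and MYL9 none is shown. They are shown because TEAD factors recognise a short core, GGAATG, whose reverse complement is CATTCC. The core was present on one strand or the other in 7 of these 10 windows, and in 14% of 35116 windows of all genes. It occurred 3 times in CCN2, a number reached by 0.128% of all windows, 2 times in ANKRD1 and 1 time in THBS1. The 250 bases before the start of these genes follow, with the core in capitals. CCN2 lies on the minus strand (chr6:131951373-131951622), ANKRD1 on the minus strand (chr10:90921088-90921337) and THBS1 on the plus strand (chr15:39580829-39581078).
CCN2: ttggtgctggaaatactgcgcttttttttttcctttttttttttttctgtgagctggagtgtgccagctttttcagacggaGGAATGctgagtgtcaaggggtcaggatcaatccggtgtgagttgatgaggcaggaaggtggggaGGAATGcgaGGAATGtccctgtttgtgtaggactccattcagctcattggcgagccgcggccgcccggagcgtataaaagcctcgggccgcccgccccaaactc
ANKRD1: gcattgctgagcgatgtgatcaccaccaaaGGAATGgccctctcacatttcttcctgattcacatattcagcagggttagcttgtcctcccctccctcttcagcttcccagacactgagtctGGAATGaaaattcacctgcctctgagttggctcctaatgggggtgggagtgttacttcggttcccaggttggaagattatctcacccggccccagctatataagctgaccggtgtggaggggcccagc
THBS1: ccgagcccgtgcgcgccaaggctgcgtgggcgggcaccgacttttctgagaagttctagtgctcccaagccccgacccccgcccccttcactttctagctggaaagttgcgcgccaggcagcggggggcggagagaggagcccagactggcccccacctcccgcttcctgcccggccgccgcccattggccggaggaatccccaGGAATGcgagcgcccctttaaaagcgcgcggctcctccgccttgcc
The cores began 169, 104 and 95 bases before the start of CCN2, 220 and 128 bases before that of ANKRD1 and 46 bases before that of THBS1. LATS2 had 1 core, 9 bases after its start base. AXL, AMOTL2 and AJUBA each had 2 windows, of which 1 held a single core. The AP-1 core TGANTCA, which reads alike on both strands, was found 1 time, in ANKRD1, and in 7.71% of all windows. The CArG box of SRF was found in 0 of the 10 windows and in 1.29% of all windows. These matches are letters in a window, not measured binding, and overlapping matches were each counted.

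Levels are log2 signals after background correction and quantile normalization, and levels of different probes are not compared. A probe was called detected on an array at a detection p below 0.01. Detected probes made up 32.2 to 40.9% of all on HCT116 copper arrays and 39.6 to 42.4% on HCT116 untreated arrays. The shares were 36.2 to 42.8% on BEAS-2B copper arrays and 41.4 to 43.2% on BEAS-2B untreated arrays. HCT116 carried the colon markers of its label only in part, and BEAS-2B carried almost none of the airway basal markers looked at here. The 5 measured colon epithelium markers summed to 5908 to 10975 linear signal units on HCT116 copper arrays and 8888 to 11503 on HCT116 untreated arrays, against 129 to 213 and 126 to 166 in BEAS-2B. The 5 measured mesenchymal markers summed to 248 to 313 on HCT116 copper arrays and 256 to 323 on HCT116 untreated arrays, against 16495 to 33049 and 26556 to 29466 in BEAS-2B. Of 5 airway basal markers only NGFR passed the detection filter, and KRT5, KRT14, KRT17 and TP63 did not. NGFR was detected on some BEAS-2B copper arrays only, and on no untreated BEAS-2B array and no HCT116 array. The 3 measured smooth muscle markers, which share actin control with TAGLN and MYL9, summed to 280 to 332 on HCT116 copper arrays and 266 to 344 on HCT116 untreated arrays, against 2089 to 3051 and 2337 to 2978 in BEAS-2B. The 4 measured leukocyte markers summed to 334 to 1031 on HCT116 copper arrays and 210 to 326 on HCT116 untreated arrays, against 679 to 1218 and 462 to 613 in BEAS-2B. The part of any of these in the results below was not tested. In bulk RNA, fewer cells of a kind and less RNA per cell cannot be told apart.

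Before any copper, HCT116 cells held far less of these transcripts than BEAS-2B cells. All 10 genes were lower in untreated HCT116 and 0 were higher, where 29.7% of all genes tested were called lower and 29.8% higher at an adjusted p below 0.05. The 10 genes were chosen with earlier results of these data known, so this count describes them and is no independent test. The median of the 10 differences was -4.24 on the log2 scale, and that of all genes was 0. CCN2 had a lowest, median and highest level of 5.48, 7.17 and 7.63 on the 8 untreated HCT116 arrays, against 13.25, 13.91 and 14.08 on the 8 untreated BEAS-2B arrays. TAGLN had 6.55, 7.46 and 7.76 in untreated HCT116, against 13.8, 13.89 and 13.98 in untreated BEAS-2B. No untreated array of one line reached the range of the other for either gene, and the fitted differences were -6.90 ± 0.07 and -6.59 ± 0.06 (SE), 120-fold and 96.6-fold. THBS1 differed by -4.95 ± 0.09, CCN1 by -4.78 ± 0.07, MYL9 by -3.93 ± 0.09, AXL by -3.85 ± 0.08 and AJUBA by -2.07 ± 0.12, also without overlap. ANKRD1 and LATS2 were each detected on 1 of 8 untreated HCT116 arrays and on 8 of 8 untreated BEAS-2B arrays, with fitted differences of -4.55 ± 0.19 and -1.51 ± 0.12 that are no exact sizes. AMOTL2 stood apart from the rest with a difference of -0.51 ± 0.22 at the edge of the threshold, and its call was lost under 25 of 40 alternatives, the leaving out of single arrays included.

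The untreated levels themselves drifted with time in culture. Arrays of 12 and 18 h were compared with those of 0 to 6 h, with 2 and 6 untreated arrays a line. Each late time had a single array. The genes and this split of times were chosen with earlier results of these data known. The counts and p-values of the drift are therefore a description and no independent test. In HCT116 4 of the 10 genes were lower late and 0 higher, against 7.20% and 7.96% of all genes. THBS1 had 5.53 at 12 h and 5.32 at 18 h, against 8.73 to 9.25 on the 6 arrays of 0 to 6 h. Both late arrays lay far below every earlier one, a fall of 3.54 ± 0.14, or 11.6-fold (adjusted p = 1.9e-11). CCN1 fell by 1.75 ± 0.11, CCN2 by 1.64 ± 0.12 and TAGLN by 0.90 ± 0.10, all without overlap. The second CCN2 probe, detected on all 8 untreated HCT116 arrays, did not show this fall, with a difference of 0.00 ± 0.19, and the second TAGLN probe had -0.33 ± 0.16. In BEAS-2B 3 genes were lower late and 0 higher, against 1.91% and 1.45% of all genes. These were THBS1 (-0.77 ± 0.14), CCN2 (-0.68 ± 0.12) and CCN1 (-0.62 ± 0.11). With 12 and 18 h set against 0 h only, THBS1 stood at -0.52 (adjusted p = 0.29). With median scaling 0 of the 3 falls were called, with adjusted p of 0.85 for CCN1, 0.41 for CCN2 and 0.48 for THBS1. CCN1 in untreated BEAS-2B had 13.44 and 13.42 at 0 h, 12.87 at 2 and 4 h, 12.74 and 12.65 at 6 h, 12.28 at 12 h and 12.41 at 18 h, so most of its decline came before the 12 h array. Without the 12 h arrays the falls of CCN1 and CCN2 in BEAS-2B lost their call (-0.55, adjusted p = 0.11, and -0.66, adjusted p = 0.06), as did that of THBS1 without the 18 h arrays (-0.70, adjusted p = 0.097).

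**Figure D1:**
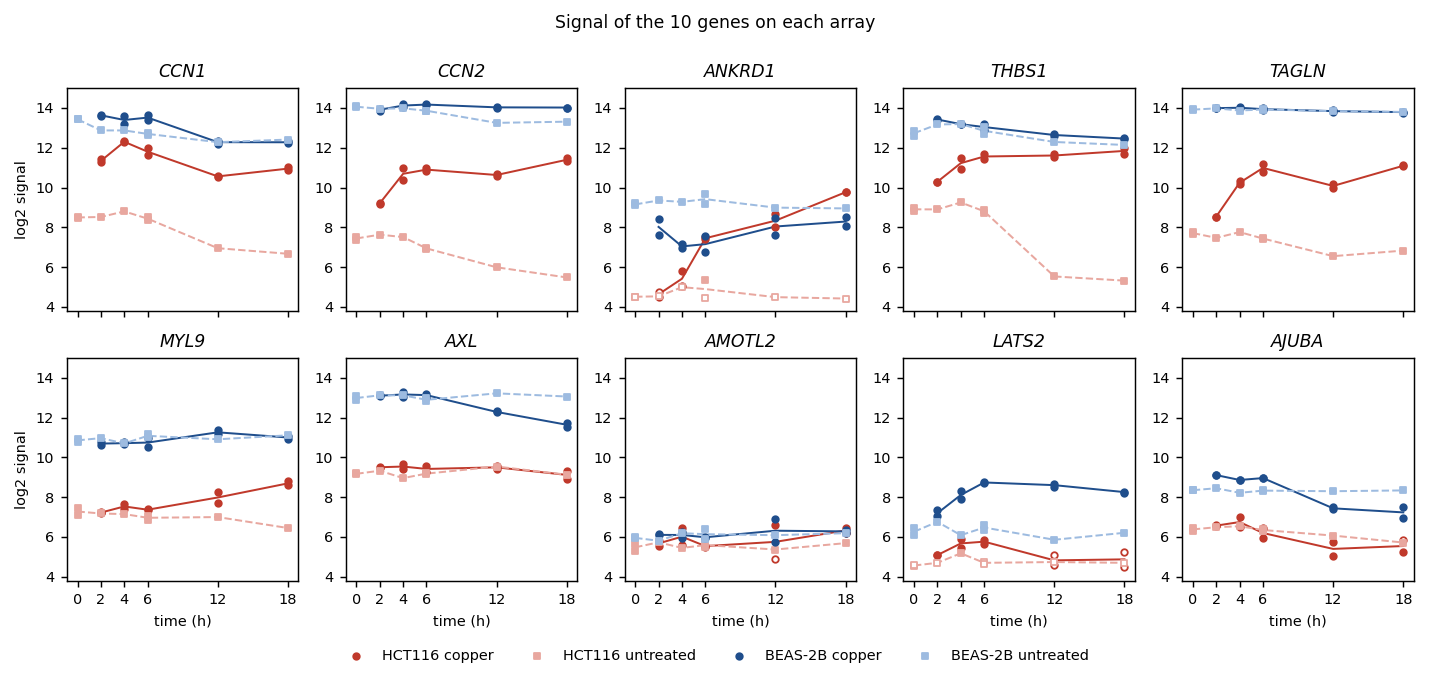
Log2 signal of each of the 10 genes on every array against time in hours, with a line through the group means. Red is HCT116, blue BEAS-2B, dark circles copper, pale squares untreated, and open symbols mark arrays where the probe was not detected. The red copper and untreated lines separate for CCN1, CCN2, THBS1, TAGLN and, from 6 h, ANKRD1, while untreated THBS1 in HCT116 drops to 5.53 and 5.32 at 12 and 18 h.

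Copper raised the secreted matrix genes, TAGLN and ANKRD1 several-fold in HCT116 cells. Averaged over 2 to 18 h against untreated arrays of the same times, 7 of the 10 genes rose and 0 fell, where 17.3% of all genes rose and 29.1% fell. The median of the 10 differences was 1.64, and that of all genes was -0.04. CCN2 had a lowest, median and highest level of 9.17, 10.74 and 11.48 on the 10 copper arrays, against 5.48, 7.17 and 7.63 on the 8 untreated arrays. Every copper array lay above every untreated one, and the averaged rise was 3.85 ± 0.07, or 14.4-fold (adjusted p = 1.7e-17). THBS1 had 10.29, 11.51 and 12.01 on copper arrays, against 5.32, 8.85 and 9.25 on untreated arrays. CCN1 had 10.55, 11.34 and 12.33 on copper arrays, against 6.67, 8.48 and 8.8 on untreated arrays. TAGLN had 8.54, 10.26 and 11.17 on copper arrays, against 6.55, 7.46 and 7.76 on untreated arrays. These 3 also did not overlap, and they rose by 3.74 ± 0.09, 3.51 ± 0.07 and 2.98 ± 0.06, or 13.4-fold, 11.4-fold and 7.88-fold. Against the untreated arrays of 0 h the averaged rises were smaller, though still called. They were 2.40 ± 0.13 for THBS1, 2.90 ± 0.11 for CCN1, 2.48 ± 0.09 for TAGLN and 3.12 ± 0.11 for CCN2. ANKRD1 was detected on 8 of 10 copper arrays and on 1 of the 6 untreated arrays of the same times, with a fitted rise of 2.46 ± 0.19 that is no exact size, since most untreated arrays sat at background. MYL9 rose by 0.81 ± 0.10. LATS2 had a fitted rise of 0.44 ± 0.12, also no exact size, with detection on 6 of 10 copper and 1 of 6 untreated arrays. LATS2 was not called without the 6 h arrays (0.29, adjusted p = 0.16).

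The order of onset differed among the genes. CCN1 had 11.26 and 11.42 on the 2 h copper arrays, against 8.52 on the 2 h untreated array, a difference of 2.82 ± 0.17 on the log2 scale. It then stood at differences of 3.50, 3.36, 3.60 and 4.28 at 4, 6, 12 and 18 h, while its copper level was highest at 4 h, at 12.27 and 12.33, and lay between 10.55 and 11.04 at 12 and 18 h. CCN2 differed by 1.58 at 2 h, 3.17 at 4 h, 3.96 at 6 h, 4.63 at 12 h and 5.91 at 18 h. The copper arrays of CCN2 reached 10.98 and 10.40 by 4 h and 11.48 and 11.31 at 18 h for the brightest probe, whose untreated arrays also fell. TAGLN had 8.54 on both 2 h copper arrays, 10.32 and 10.16 at 4 h, 11.17 and 10.80 at 6 h, 9.96 and 10.20 at 12 h and 11.08 and 11.11 at 18 h. Its copper level was thus lower at 12 h than at 6 h and at 18 h, on both arrays. ANKRD1 was undetected on both 2 h copper arrays (4.77 and 4.50) and had 5.80 and 5.03 at 4 h, 7.39 and 7.51 at 6 h, 8.02 and 8.65 at 12 h and 9.78 and 9.75 at 18 h. CCN1, CCN2, THBS1 and TAGLN were detected from the start. MYL9 differed by 0.04, 0.39 and 0.40 at 2, 4 and 6 h, by 0.98 at 12 h and by 2.25 at 18 h.

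**Figure D2:**
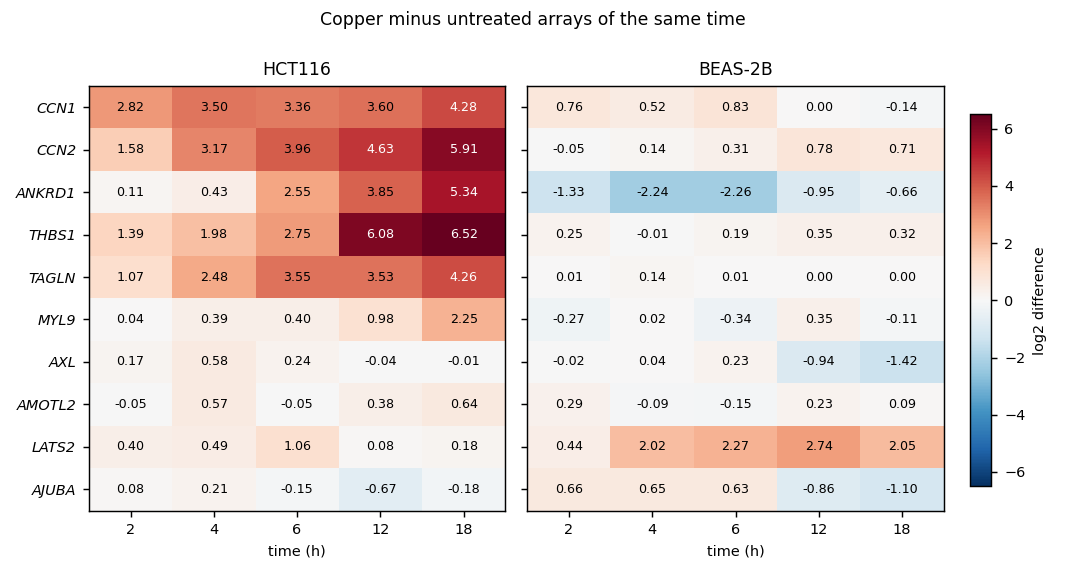
Copper minus untreated signal (log2) at the same time for each gene (rows) and time in hours (columns), HCT116 left and BEAS-2B right, red higher and blue lower with copper. In HCT116 the upper 5 genes are higher with copper, up to 6.52 for THBS1 at 18 h, and in BEAS-2B ANKRD1 is lower at all 5 times and LATS2 higher.

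Over 2 and 4 h, 4 of the 10 genes rose in HCT116 and 0 fell, against 4.55% and 4.48% of all genes. They were CCN1 (3.16 ± 0.12), CCN2 (2.38 ± 0.12), TAGLN (1.77 ± 0.10) and THBS1 (1.69 ± 0.15). Over 12 and 18 h, 6 rose and 0 fell, against 17.8% and 30.4% of all genes, with a median of 2.76 over the 10 genes and -0.06 over all genes. THBS1 had 11.70, 11.52, 12.01 and 11.67 on the 4 late copper arrays, against 5.53 and 5.32 on the 2 late untreated arrays, a difference of 6.30 ± 0.15, or 78.9-fold. CCN2 differed by 5.27 ± 0.12, CCN1 by 3.94 ± 0.12, TAGLN by 3.90 ± 0.10 and MYL9 by 1.61 ± 0.16 late, all without overlap. ANKRD1 was undetected on both late untreated arrays and detected on all 4 late copper arrays, which puts it at least 20.9-fold higher (adjusted p = 8.1e-10), with the untreated arrays set to their lowest detected signal. The late difference exceeded the early one for 6 genes and fell short of it for 0, against 11.7% and 21.2% of all genes. THBS1 gained 4.62 ± 0.21, CCN2 2.90 ± 0.17, TAGLN 2.12 ± 0.14, MYL9 1.40 ± 0.22 and CCN1 0.78 ± 0.17. ANKRD1 was the sixth gene called, without a measured size, because it was undetected on the untreated arrays of both stages and on the 2 h copper arrays. The second CCN2 probe gained 1.27 ± 0.28. On copper arrays CCN1 averaged 11.82 early and 10.75 late, against 8.66 and 6.81 on untreated arrays. Its copper level thus fell, by less than its untreated level. THBS1 averaged 10.76 and 11.72 on copper arrays, against 9.07 and 5.42 on untreated arrays. Against 0 h CCN1 stood at 3.33 ± 0.12 early and 2.26 ± 0.12 late, and THBS1 at 1.85 ± 0.15 and 2.82 ± 0.15. CCN2, TAGLN and MYL9 were also higher late than early against 0 h. The gain of CCN1 was not called in the table that the authors normalized (0.30, adjusted p = 0.13) or without the 2 h or the 18 h arrays (0.44 each time, adjusted p = 0.18 and 0.15). That of MYL9 was not called without the 18 h arrays (0.76, adjusted p = 0.055).

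Because untreated HCT116 cells drifted, the size of the late rise depended on the untreated arrays used. Against the 2 arrays of 0 h, THBS1 was higher late by 2.82 ± 0.15, CCN2 by 3.57 ± 0.12, TAGLN by 2.88 ± 0.10, CCN1 by 2.26 ± 0.12 and MYL9 by 1.06 ± 0.16. All 5 remained called with adjusted p of at most 1.4e-05. For THBS1 the log2 difference of 6.30 with the same times thus stood beside 2.82 with 0 h. ANKRD1 was undetected on the untreated arrays of 0, 12 and 18 h alike, so this comparison is not informative for it. AJUBA changed most in its call: the late difference of -0.42 ± 0.20 was not called with the same times (adjusted p = 0.092) and was -0.91 ± 0.20 against 0 h (adjusted p = 0.00095).

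**Figure D3:**
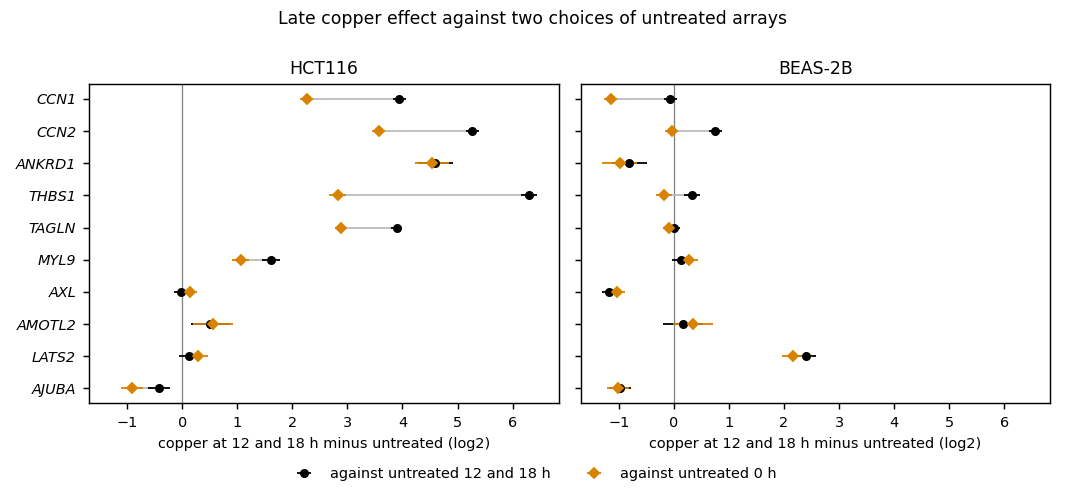
Late copper difference (log2, mean of 12 and 18 h, bars are standard errors) for each gene in HCT116 (left) and BEAS-2B (right), against untreated arrays of 12 and 18 h (black circles) or of 0 h (orange diamonds). In HCT116 the THBS1 points lie at 6.30 and 2.82, ANKRD1 was undetected on either choice of untreated arrays, and in BEAS-2B the CCN2 points lie at 0.75 and -0.04.

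AXL, AMOTL2 and AJUBA did not pass the test in HCT116 on average. AXL had a lowest, median and highest level of 8.91, 9.46 and 9.68 with copper, against 8.96, 9.18 and 9.54 untreated, with overlapping groups and a difference of 0.19 ± 0.08 (adjusted p = 0.057). That value lay close to the threshold and was called under 10 of 42 alternatives, with a range of 0.17 to 0.24 among those called. AMOTL2 differed by 0.30 ± 0.22 (adjusted p = 0.29). One of its arrays, the first 12 h copper replicate, was undetected at 4.90, whereas the other 12 h copper array had 6.61. Without that array AMOTL2 was called higher on average (0.47, adjusted p = 0.025) and late (0.94, adjusted p = 0.0096). AJUBA averaged -0.14 ± 0.12. LATS2 was detected on 6 of 10 copper arrays, all at 2, 4 and 6 h, with levels of 5.07 and 5.11, 5.46 and 5.89, and 5.86 and 5.67. At 12 and 18 h it was detected on 0 of 4 copper and 0 of 2 untreated arrays, so no late size is given.

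In BEAS-2B cells LATS2 rose and ANKRD1 fell by the largest amounts among the genes called. On average 3 of the 10 genes rose and 2 fell, against 18.5% and 30.3% of all genes, counts not far from those shares. The medians were 0.05 over the 10 genes and -0.04 over all genes. LATS2 had a lowest, median and highest level of 7.04, 8.29 and 8.75 on copper arrays, against 5.86, 6.28 and 6.76 on untreated arrays. Its groups did not overlap, and the averaged rise was 1.90 ± 0.12, or 3.74-fold (adjusted p = 1.8e-10). By time the differences of LATS2 were 0.44 at 2 h, 2.02 at 4 h, 2.27 at 6 h, 2.74 at 12 h and 2.05 at 18 h. ANKRD1 had 6.77, 7.61 and 8.51 on copper arrays, against 8.95, 9.18 and 9.66 on untreated arrays. Here too the groups did not overlap, in the opposite direction, with an averaged fall of 1.49 ± 0.19, or 2.81-fold (adjusted p = 2.6e-06). The fall of ANKRD1 was largest at 4 and 6 h, at -2.24 and -2.26, and smaller at 12 and 18 h, at -0.95 and -0.66. AXL fell by 0.42 ± 0.08 on average, a call that was lost without the 18 h arrays (-0.17, adjusted p = 0.089).

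CCN1 and CCN2 rose slightly in BEAS-2B, by 0.39 ± 0.07 and 0.38 ± 0.07, and both results depended on the untreated arrays. CCN1 had 13.64 and 13.62 at 2 h, 13.21 and 13.58 at 4 h and 13.40 and 13.63 at 6 h with copper, against 12.87, 12.87, and 12.74 and 12.65 untreated. At 12 h it had 12.35 and 12.21, against 12.28 untreated, and at 18 h 12.32 and 12.23, against 12.41 untreated. Copper arrays of CCN1 thus lay above untreated ones of the same time up to 6 h and level with them later. Against 0 h its average was -0.41 ± 0.11 (adjusted p = 0.0046), the opposite sign. Its late difference was -0.07 ± 0.12 with the same times and -1.15 ± 0.12 against 0 h (adjusted p = 1.9e-07). CCN2 kept to 13.87 to 14.21 on all 10 copper arrays, while the untreated arrays had 13.86 to 14.08 up to 6 h, 13.25 at 12 h and 13.31 at 18 h. Against 0 h its average difference was -0.01 ± 0.11. THBS1 averaged 0.22 ± 0.09 in BEAS-2B (adjusted p = 0.055), TAGLN 0.03 ± 0.06, MYL9 -0.07 ± 0.10, AMOTL2 0.07 ± 0.22 and AJUBA 0.00 ± 0.12.

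Several of these probes were near the top of the signal range in BEAS-2B. Only 0.102 to 0.334% of all probes were brighter than TAGLN on the 18 BEAS-2B arrays, and 0.0159 to 0.696% were brighter than CCN2. A second and dimmer TAGLN probe had a mean of 12.51 with copper and 12.54 untreated, with an averaged difference of -0.11 ± 0.10. The second CCN2 probe had 13.04 with copper and 12.64 untreated, with a difference of 0.51 ± 0.12. Whether saturation narrowed the differences of the bright probes was not tested.

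Early and late responses in BEAS-2B were read gene by gene. Over 2 and 4 h, 3 genes rose and 1 fell, against 7.92% and 8.54% of all genes. LATS2 rose by 1.23 ± 0.19, CCN1 by 0.64 ± 0.12 and AJUBA by 0.65 ± 0.20 (adjusted p = 0.032), and ANKRD1 fell by 1.79 ± 0.31. Each of these early calls rested on few arrays: without the 4 h arrays LATS2 stood at 0.44 (adjusted p = 0.52) and ANKRD1 at -1.33 (adjusted p = 0.15), and without the 2 h arrays CCN1 stood at 0.52 (adjusted p = 0.063). Against 0 h the early value of CCN1 was 0.08 ± 0.12 (adjusted p = 0.75). AJUBA kept a value of 0.64 to 0.66 but lost its call without any one of the 4 early copper arrays (adjusted p of 0.059 to 0.069). Over 12 and 18 h, 2 genes rose and 3 fell, against 18.2% and 31.3% of all genes, so these late counts were near the shares of all genes. LATS2 rose by 2.39 ± 0.19 and CCN2 by 0.75 ± 0.12, and the CCN2 value was -0.04 ± 0.12 against 0 h. AXL had 12.31, 12.26, 11.55 and 11.73 on the late copper arrays, against 13.22 and 13.06 on the late untreated arrays, a fall of 1.18 ± 0.13, or 2.27-fold (adjusted p = 2.9e-07). AJUBA had 7.49, 7.39, 7.50 and 6.97 on the late copper arrays, against 8.30 and 8.34 on the late untreated arrays, a fall of 0.98 ± 0.20. ANKRD1 was late at -0.81 ± 0.31 (adjusted p = 0.04), a call lost under 6 of 42 alternatives. It was lost with the replicate number as a block (-0.67, adjusted p = 0.1) and with no detection filter (-0.81, adjusted p = 0.052). Without the 12 h arrays (-0.66) or the 18 h arrays (-0.95) it was lost too, so neither late time alone carried it. The same held without the first 12 h copper array (-0.59) and without the second 18 h copper array (-0.70).

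The brightest probe of AJUBA crossed over in BEAS-2B. Its early copper arrays had 9.12, 9.10, 8.88 and 8.85, against 8.45 and 8.22 untreated, and its late ones lay below every untreated array. The late difference minus the early one was -1.63 ± 0.28 (adjusted p = 0.00019). For the dimmer AJUBA probes it was -0.12 ± 0.33 and -0.81 ± 0.43. In all 2 genes gained from early to late and 3 lost, against 12.0% and 21.3% of all genes, counts not far from those shares. LATS2 gained 1.17 ± 0.27 and CCN2 0.70 ± 0.17, while AXL lost 1.19 ± 0.18 and CCN1 lost 0.71 ± 0.17. Without the 2 h arrays the gains of LATS2 (0.38, adjusted p = 0.53) and CCN2 (0.61, adjusted p = 0.068) and the loss of CCN1 (-0.59, adjusted p = 0.063) were not called.

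Where a gene had several probes, most moved alike in HCT116 but by different sizes. The second CCN2 probe was higher by 2.70 ± 0.12 on average with copper and by 3.31 ± 0.20 late, and the second TAGLN probe by 2.57 ± 0.10 and 3.39 ± 0.16. A further, dim TAGLN probe was detected on 1 of 10 copper and 0 of 8 untreated HCT116 arrays. The second MYL9 probe was higher by only 0.22 ± 0.09 on average and 0.71 ± 0.15 late in HCT116, and stood at -0.32 ± 0.09 in BEAS-2B, where the brighter probe had -0.07 ± 0.10. The second AXL probe was late at -0.86 ± 0.13 in BEAS-2B. In HCT116 it had 0.26 ± 0.08 on average and 0.23 ± 0.13 late, against 0.19 ± 0.08 and -0.03 ± 0.13 for the brighter probe. As the mean of its probes AXL was called higher on average in HCT116 (0.23, adjusted p = 0.0028). The other AJUBA probes differed from the brightest: late in BEAS-2B they stood at -0.70 ± 0.31 and 0.34 ± 0.24, against its -0.98 ± 0.20. On average in BEAS-2B they had -0.19 ± 0.19 and 0.47 ± 0.14, against its 0.00 ± 0.12. In HCT116 these 2 probes were detected on 1 and 0 of 10 copper arrays and on 1 and 0 of 8 untreated arrays. The HCT116 values of AJUBA thus rest on the brightest probe.

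The averaged copper difference in HCT116 minus that in BEAS-2B was tested directly. It was positive for 7 of the 10 genes and negative for 1, against 12.8% and 13.6% of all genes. ANKRD1 was called (adjusted p = 4.6e-09), being higher with copper in HCT116 and lower in BEAS-2B, but its size is not exact because HCT116 detected it on 1 of the 6 untreated arrays. THBS1 differed by 3.52 ± 0.13, CCN2 by 3.47 ± 0.11 (2.19 ± 0.17 for its second probe), CCN1 by 3.12 ± 0.10 and TAGLN by 2.95 ± 0.09. Over the alternatives the THBS1 value ranged from 2.18 to 4.12. MYL9 differed by 0.88 ± 0.13 (0.54 ± 0.13 for its second probe) and AXL by 0.61 ± 0.11. LATS2 was the exception, at -1.46 ± 0.17 (adjusted p = 3.1e-06). Its late HCT116 arrays were undetected on both sides, and HCT116 detected it on 1 of the 6 untreated arrays, so this size is not exact either. AMOTL2 (0.23 ± 0.31) and AJUBA (-0.14 ± 0.17) did not pass. Even at its highest, copper-treated HCT116 stayed below BEAS-2B for CCN2, with at most 11.48, against at least 13.87 on BEAS-2B copper arrays and 13.25 on BEAS-2B untreated arrays. The same held for TAGLN, with at most 11.17, against at least 13.77 and 13.8. ANKRD1 reached 9.78 and 9.75 at 18 h with copper in HCT116, against 8.51 and 8.07 in copper-treated and 8.95 in untreated BEAS-2B at 18 h, and was thus above every BEAS-2B array of any time.

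Other genes of the pathway were read beside the members, for copper averaged over 2 to 18 h. Of all genes, 17.3% rose and 29.1% fell in HCT116, and 18.5% rose and 30.3% fell in BEAS-2B, and each list below is to be read against these shares. Of 16 other YAP targets, 6 (37.5%) rose and 1 (6.25%) fell in HCT116, and 6 (37.5%) rose and 6 (37.5%) fell in BEAS-2B. GADD45A, a growth arrest gene that also answers to stress, rose by 1.83 ± 0.07 in HCT116 and 2.92 ± 0.07 in BEAS-2B. FJX1 fell by 2.55 ± 0.12 in HCT116 and 1.37 ± 0.12 in BEAS-2B. F3, tissue factor, rose by 0.40 ± 0.09 in HCT116 and 0.97 ± 0.09 in BEAS-2B. CRIM1 rose by 0.57 ± 0.10 in HCT116, and IGFBP3 fell by 0.89 ± 0.08 in BEAS-2B and was undetected in HCT116. The list's median difference was 0.13 in HCT116 and -0.04 in BEAS-2B, against 1.64 and 0.05 for the 10 genes.

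Among 9 genes for YAP, TAZ, TEAD and VGLL proteins, 0 rose and 2 (22.2%) fell in HCT116, and 3 (33.3%) rose and 3 (33.3%) fell in BEAS-2B. VGLL4, which competes with YAP for TEAD, fell by 0.41 ± 0.08 in HCT116 and rose by 1.08 ± 0.08 in BEAS-2B, and the lines differed by -1.49 (adjusted p = 3.5e-08). TEAD4 fell by 0.52 ± 0.06 in HCT116 and 0.19 ± 0.06 in BEAS-2B. TEAD2 fell by 0.76 ± 0.06 and WWTR1, the gene of TAZ, rose by 0.86 ± 0.20 in BEAS-2B. Of 16 measured Hippo kinases and adaptors, 5 (31.2%) rose and 3 (18.8%) fell in HCT116, and 7 (43.8%) rose and 2 (12.5%) fell in BEAS-2B. STK4, the kinase MST1, rose by 0.61 ± 0.07 in HCT116 and 0.45 ± 0.07 in BEAS-2B, and the scaffold AMOT, detected on 6 of 10 copper arrays in each line, fell by 0.54 ± 0.11 in HCT116 and 0.40 ± 0.11 in BEAS-2B. TAOK1, TAOK3 and MAP4K4 rose in both lines. TAOK1 rose by 0.62 ± 0.13 in HCT116 and 0.45 ± 0.13 in BEAS-2B. TAOK3 rose by 0.28 ± 0.11 in HCT116 and 0.87 ± 0.11 in BEAS-2B, and MAP4K4 by 0.22 ± 0.08 and 0.27 ± 0.08. The adaptor SAV1 fell by 0.73 ± 0.15 in HCT116, and WWC1 fell by 0.29 ± 0.06 in BEAS-2B.

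Of 21 measured SRF, MRTF and actin filament genes, 8 (38.1%) rose and 2 (9.52%) fell in HCT116, and 5 (23.8%) rose and 7 (33.3%) fell in BEAS-2B, the BEAS-2B shares being near those of all genes. In untreated cells 19 of these 21 (90.5%) were lower in HCT116 than in BEAS-2B, against 29.7% of all genes. ZYX, which encodes the focal adhesion protein zyxin, rose by 0.76 ± 0.06 in HCT116 and TPM4, a tropomyosin, by 0.87 ± 0.11. Both coactivator genes of the route fell in both lines: MRTFB fell by 1.67 ± 0.09 in HCT116 and 0.87 ± 0.09 in BEAS-2B, and MRTFA fell by 0.94 ± 0.12 in HCT116 and 0.32 ± 0.12 in BEAS-2B. On HCT116 copper arrays MRTFB was detected on 6 of 10 and MRTFA on 2 of 10. In BEAS-2B FHL2 rose by 0.55 ± 0.05 and SRF by 0.66 ± 0.07, and ACTA2, smooth muscle actin, fell by 0.41 ± 0.08.

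The partners of AXL and of the secreted proteins were also examined. Of the AXL ligands and relatives, 4 genes in all, 1 (25%) rose and 1 (25%) fell in HCT116, and 3 (75%) rose and 1 (25%) fell in BEAS-2B. PROS1, a ligand of the family, rose by 0.33 ± 0.11 in HCT116 and 0.66 ± 0.11 in BEAS-2B. TYRO3 fell by 0.21 ± 0.08 in HCT116 and rose by 0.42 ± 0.08 in BEAS-2B. In BEAS-2B the receptor gene MERTK rose by 0.61 ± 0.12 and the ligand gene GAS6 fell by 0.27 ± 0.08. Of 8 measured receptors for CCN proteins and thrombospondins, 1 (12.5%) rose and 2 (25%) fell in HCT116, and 3 (37.5%) rose and 1 (12.5%) fell in BEAS-2B. The integrin gene ITGA6 rose by 0.51 ± 0.08 in HCT116 and 0.43 ± 0.08 in BEAS-2B, and ITGB5 fell by 0.30 ± 0.06 in HCT116 and 0.17 ± 0.06 in BEAS-2B. CD47, a receptor of thrombospondin, fell by 0.40 ± 0.09 in HCT116. LRP1 rose by 0.59 ± 0.12 and ITGB3 by 0.39 ± 0.10 in BEAS-2B, and both were undetected on all HCT116 arrays. ITGB1 differed by 0.12 ± 0.06 in HCT116 and -0.03 ± 0.06 in BEAS-2B.

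**Figure D4:**
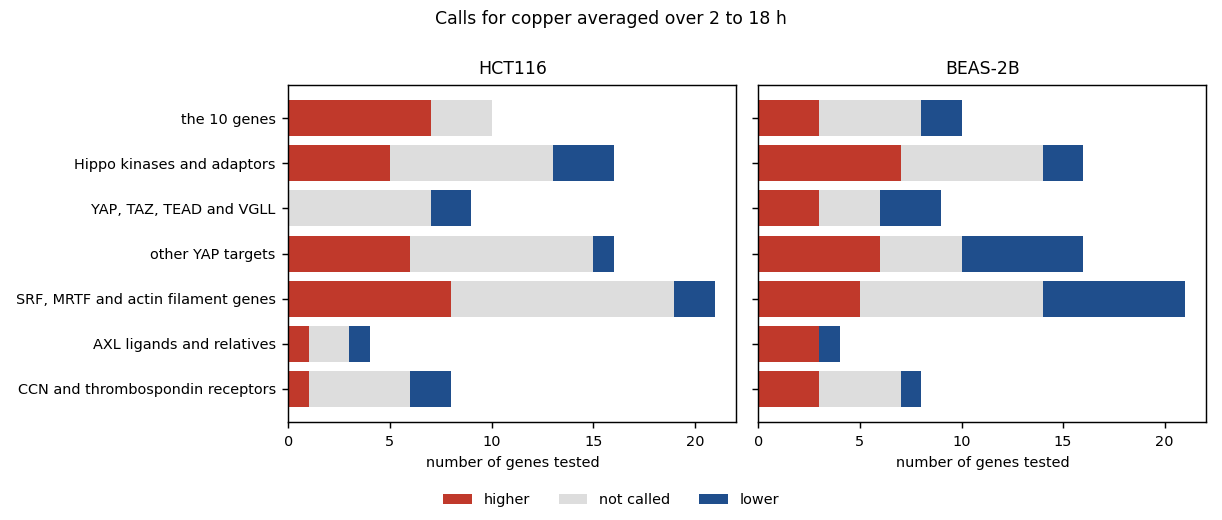
Number of genes called higher (red), not called (grey) or lower (blue) with copper averaged over 2 to 18 h, in HCT116 (left) and BEAS-2B (right), for the 10 genes and for 6 lists around them. The 10 genes show 7 higher and 0 lower in HCT116, and 3 higher and 2 lower in BEAS-2B.

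The genes whose pattern was most like each member's were found over the 22 group means, centred on the untreated mean of each line, as a description without a test. CCN2 and TAGLN were each other's closest match, with a Pearson r of 0.976. CCN2 was also the second match of THBS1 (0.95) and of CCN1 (0.935), whose first match was AMY1A in each case (0.989 and 0.938), a gene with near-identical copies that a probe may not separate. SNORA41 followed for CCN2 (0.959) and SNORA63 for TAGLN (0.969). KRT10 (0.939) and PPP1R11 (0.934) were nearest to ANKRD1, and CLIC3 (0.939) and NDUFAF7 (0.922) to MYL9. AXL was nearest to IGFBP4 and HNRNPUL1 (0.928 each), LATS2 to PELI1 (0.966) and SLC2A3 (0.953), and AJUBA to TOB2 (0.95) and ZNF668 (0.936). AMOTL2 had no match above that of SLC1A7 (0.799) and COL2A1 (0.794).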

How the data were processed

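The authors deposited log2 signals per probe and array, called non-normalized in the file header and ranging from 5.89 to 14.49, each with a detection p-value. The array means of these signals lay between 7.31 and 7.33, so they may have been scaled before deposit. Median scaling started from the same signals and would not undo that. A second deposited table holds log2 values normalized by the authors, which differed by at most 0.2. BeadStudio is named in the submitters' processing notes, and its version and the probe build are not given in the sources used here. Signals were made linear, then background-corrected, quantile-normalized and logged with neqc of limma 3.58.1 (R 4.3.3, offset 16). Genes needed a detection p below 0.01 on at least 2 arrays and were represented by their brightest probe, from the array annotation with RefSeq symbols. A single limma model with 22 groups had 14 residual degrees of freedom. Its moderated two-sided tests were adjusted by Benjamini-Hochberg over 14678 genes at 0.05. Early is the mean of 2 and 4 h, late that of 12 and 18 h. Groups of 1 array are assumed to vary like the others, and the number of arrays limits the precision. Arrays within a pair differed with an SD of 0.258 to 0.517 and held 0 identical values. Replicate numbers did not pair arrays across groups: median correlations over 21 pairs of groups were -0.00054 in HCT116 and 0.0018 in BEAS-2B. The fitting was tested on simulated data. In each list up to 4 genes a line with the smallest adjusted p are named. The 10 genes, the lists and the split of untreated times were chosen with earlier results of these data known. Alternatives covered normalization, filter, probe choice, untreated arrays, replicate block and left-out arrays or times. The results of 1 list are not reported here.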

Additional observations from a re-analysis of the deposited data

Results flagged for a closer look

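The averaged copper difference was not the same in HCT116 as in BEAS-2B for 8 genes, by the test of the difference itself, with cell line and dose inseparable. HCT116 minus BEAS-2B was 3.52 for THBS1, 3.47 for CCN2, 3.12 for CCN1, 2.95 for TAGLN, 0.88 for MYL9, 0.61 for AXL and -1.46 for LATS2. The fitted value of ANKRD1 was 3.94, no exact size, as HCT116 detected it on 1 of the 6 untreated arrays. The LATS2 value is no exact size for the same reason. The value of MYL9 was 0.46 against 0 h (adjusted p = 0.13), and that of AXL was 0.50 with median scaling (adjusted p = 0.17).

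Late and early copper differences also differed from each other. In HCT116 late minus early was 4.62 for THBS1, 2.9 for CCN2, 2.12 for TAGLN, 1.4 for MYL9 and 0.78 for CCN1. Against 0 h CCN1 was higher by 3.33 early and by 2.26 late, and THBS1 by 1.85 and 2.82. The fitted 4.33 of ANKRD1 is no exact size, since its untreated arrays of both stages were undetected. In BEAS-2B late minus early was 1.17 for LATS2, 0.7 for CCN2, -0.71 for CCN1, -1.19 for AXL and -1.63 for the brightest AJUBA probe. Without the 12 h arrays the LATS2 value was 0.82 (adjusted p = 0.067).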

How the results depend on the processing

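Over the 10 genes, the 12 comparisons and the alternatives, 4823 values kept their side of the threshold, 68 lost their call, 66 gained one and 3 that were called changed sign. A further 65 uncalled values changed sign, such as THBS1 late in BEAS-2B (0.33 and, against 0 h, -0.18). The called values that changed sign were those against 0 h in BEAS-2B: CCN1 on average (-0.41), CCN2 on average (-0.01) and CCN2 late (-0.04). Of the counts of the 10 genes called, those on average, early, late minus early and in the untreated drift of BEAS-2B became 3, 2, 3 and 0 with median scaling in place of quantile normalization. There AJUBA, CCN1 and CCN2 were among the lost calls, and the median of all genes moved to -0.20 early and -0.11 on average in HCT116, -0.16 late in BEAS-2B and -0.13 for late minus early in BEAS-2B. AJUBA early in BEAS-2B was 0.41 (adjusted p = 0.13) as the mean of its probes. The early BEAS-2B count was 2 without the 2 h arrays and 1 without the 4 h arrays, late minus early in BEAS-2B was 2 without the 2 h arrays, and the BEAS-2B drift was 1 without the 12 h arrays. Early in HCT116 it was 7 against all untreated arrays. Leaving out single arrays kept the counts within 7 to 8 on average in HCT116 and 5 to 6 in BEAS-2B. With the replicate block, 4 genes were called late in BEAS-2B and 9 lower in untreated HCT116, as ANKRD1 (-0.67) and AMOTL2 (-0.53) lost their calls, and no other call of the 10 genes was lost. THBS1 in BEAS-2B (0.22) was called under 11 alternatives, and AJUBA late in HCT116 without the second 12 h copper array (-0.60). The counts over all genes varied more: 359 to 4514 early in BEAS-2B, 116 to 3147 early in HCT116, 43 to 764 and 397 to 2663 in the drift of BEAS-2B and HCT116, and 1732 to 4329 between the lines. They were 2714 to 5141 and 2259 to 5110 for late minus early in BEAS-2B and HCT116. The share called higher ran from 25 to 86.2% early in HCT116 (50.4% as reported), 42.4 to 73% early in BEAS-2B (48.1%), 24.2 to 39.2% on average in HCT116 (37.3%), 32.9 to 51.1% for late minus early in HCT116 (35.5%) and 27.6 to 50.4% between the lines (48.6%). In the drift it ran from 35.3 to 55.8% in HCT116 (52.5%) and 25.5 to 48.2% in BEAS-2B (43.1%). Causes were not tested. Dim probes (ANKRD1 and LATS2 in HCT116) are limited by background.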
